A study of Mus musculus with 8 samples.

Results

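In MEL cells, 990 protein-coding genes carried serine 5-phosphorylated RNA polymerase II at the promoter without any detected serine 2-phosphorylated polymerase further into or just past the gene. They were taken from 4807 eligible genes (20.6%, 95% Wilson interval 19.5 to 21.8%), themselves part of 21536 protein-coding genes with a known strand on chromosomes 1 to 19, X and Y. An eligible gene was at least 5 kb long, had a Ser5P peak within 1000 bp of its 5′ end in all 4 Ser5P libraries, and had no 5′ end of an opposite-strand gene of any biotype within 1000 bp. A member had in addition no peak in any of the 4 Ser2P libraries from 1000 bp inside its 5′ end to 3000 bp past its 3′ end. The presence of promoter Ser5P and the absence of downstream Ser2P are therefore the measured values the genes were chosen by, and they are given below only as description. The breadth of promoter Ser5P is compared between KD and control below, within the limit that this choice sets. Of the other eligible genes, 552 had downstream Ser2P in 1 library, 515 in 2, 640 in 3 and 2110 in all 4, and the last set served for comparison.

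MEL is a mouse erythroleukaemia line whose cells resemble arrested red cell precursors. CUT&Tag, in which an antibody directs a transposase to cut and tag nearby chromatin, was performed for Rpb1, the largest polymerase II subunit, with its C-terminal domain phosphorylated on serine 5 (Ser5P) or serine 2 (Ser2P). For each antibody there were 2 libraries from Myrlin KD cells, in which Myrlin, a non-coding transcript of an upstream enhancer of Myb, was knocked down, and 2 from dCAS control cells, 8 libraries in all. Per the labels both lines are CRISPR-edited MEL cells with a dCAS background, and the same number of cells went into each biological replicate. Whether a line is 1 clone, and how the cultures were kept apart, is not given in the sources used here, so the tests below compare libraries whose spread may be technical rather than biological.

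The C-terminal domain is a long run of heptapeptide repeats. Serine 5 is phosphorylated mainly by Cdk7 of the general factor TFIIH as polymerase starts a transcript, and this form is usually densest near the start site. Serine 2 is phosphorylated by Cdk9, Cdk12 and Cdk13 as polymerase elongates, and this form usually builds up towards the 3′ end of active genes. A peak is called only where signal stands above the local background, so a gene without a downstream peak is one where Ser2P was not detectable at these depths.

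The promoters below show the kinds of start site in the set: 3 among the 10 with the highest peak folds (Pnp, Idi1 and Siah1b), 3 zinc-finger genes (Zfp963, Zfp619 and Zfp120) and the genes with a large difference between KD and control in each direction (Flvcr1 and Anxa2). Sequences are RefSeq, build GRCm38.p6, each 300 bases from 250 before to 50 after the annotated start, written 5′ to 3′ along the gene. Capitals mark exact matches, on either strand, of the GC box (GGGCGG, bound by Sp1-type factors), the CCAAT box (CCAAT, bound by NF-Y), the ETS core (CCGGAAG) and the TATA box (TATAAA). Pnp lies at chr14:50944053-50944352 on the plus strand, Idi1 at chr13:8885356-8885655 on the plus strand and Siah1b at chrX:164076444-164076743 on the minus strand. Zfp963 lies at chr8:69749913-69750212 on the minus strand, Zfp619 at chr7:39517516-39517815 on the plus strand and Zfp120 at chr2:150136629-150136928 on the minus strand. Flvcr1 lies at chr1:191026141-191026440 on the minus strand and Anxa2 at chr9:69453433-69453732 on the plus strand. Zfp120 was chosen after its values were seen, to show an ETS core.
Pnp: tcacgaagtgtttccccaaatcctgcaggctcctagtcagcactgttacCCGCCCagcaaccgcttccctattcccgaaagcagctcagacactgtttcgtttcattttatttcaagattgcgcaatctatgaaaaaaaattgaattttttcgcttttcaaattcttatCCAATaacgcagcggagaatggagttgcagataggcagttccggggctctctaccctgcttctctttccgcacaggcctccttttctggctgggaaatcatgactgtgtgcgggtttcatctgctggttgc
Idi1: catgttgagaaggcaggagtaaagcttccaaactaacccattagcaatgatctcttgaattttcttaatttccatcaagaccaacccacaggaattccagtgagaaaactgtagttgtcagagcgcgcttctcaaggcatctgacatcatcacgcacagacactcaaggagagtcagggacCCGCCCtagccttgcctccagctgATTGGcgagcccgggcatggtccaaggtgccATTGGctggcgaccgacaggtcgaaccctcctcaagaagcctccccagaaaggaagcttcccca
Siah1b: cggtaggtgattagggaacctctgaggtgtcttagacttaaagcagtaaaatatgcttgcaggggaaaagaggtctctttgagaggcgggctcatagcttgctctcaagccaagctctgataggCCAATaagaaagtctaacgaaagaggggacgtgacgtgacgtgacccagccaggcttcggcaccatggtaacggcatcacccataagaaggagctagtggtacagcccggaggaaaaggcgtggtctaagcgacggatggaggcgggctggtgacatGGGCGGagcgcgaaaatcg
Zfp963: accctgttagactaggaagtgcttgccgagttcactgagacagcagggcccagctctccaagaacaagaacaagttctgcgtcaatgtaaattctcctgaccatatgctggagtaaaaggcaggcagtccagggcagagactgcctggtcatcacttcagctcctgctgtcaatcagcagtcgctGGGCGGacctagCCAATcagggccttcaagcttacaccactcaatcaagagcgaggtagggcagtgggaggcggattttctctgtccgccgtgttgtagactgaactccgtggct
Zfp619: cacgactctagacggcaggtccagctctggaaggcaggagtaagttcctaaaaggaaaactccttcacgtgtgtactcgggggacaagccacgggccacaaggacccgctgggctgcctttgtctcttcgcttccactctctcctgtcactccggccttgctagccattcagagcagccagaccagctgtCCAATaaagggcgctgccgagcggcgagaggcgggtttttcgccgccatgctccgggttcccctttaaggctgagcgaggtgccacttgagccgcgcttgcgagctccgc
Zfp120: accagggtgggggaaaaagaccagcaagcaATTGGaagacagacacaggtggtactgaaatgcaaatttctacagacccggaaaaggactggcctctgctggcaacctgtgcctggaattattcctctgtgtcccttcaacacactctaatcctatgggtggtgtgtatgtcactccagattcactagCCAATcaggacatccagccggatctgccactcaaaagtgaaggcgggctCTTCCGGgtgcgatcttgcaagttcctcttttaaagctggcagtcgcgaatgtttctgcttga
Flvcr1: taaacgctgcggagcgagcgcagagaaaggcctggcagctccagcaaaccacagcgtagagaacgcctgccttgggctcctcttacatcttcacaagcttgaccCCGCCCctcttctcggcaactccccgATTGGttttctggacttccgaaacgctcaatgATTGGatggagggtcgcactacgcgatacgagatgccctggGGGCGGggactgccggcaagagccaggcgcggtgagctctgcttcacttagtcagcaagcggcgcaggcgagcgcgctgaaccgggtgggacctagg
Anxa2: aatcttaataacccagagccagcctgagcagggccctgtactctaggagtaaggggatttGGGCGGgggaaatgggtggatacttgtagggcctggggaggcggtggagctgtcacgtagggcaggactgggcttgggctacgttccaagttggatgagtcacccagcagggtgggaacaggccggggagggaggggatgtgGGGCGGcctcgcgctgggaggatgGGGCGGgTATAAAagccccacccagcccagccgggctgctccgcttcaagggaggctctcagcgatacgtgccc
The TATA box of Anxa2 begins 17 bases before the annotated start, and none of the other promoters shown holds TATAAA. The CCAAT box occurs in every promoter shown except that of Anxa2, at 60 and 62 bases before the start in Zfp619 and Zfp120. The ETS core of Zfp120 begins 13 bases before its start.

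The depth of the data can be seen in the peak lists. The Ser5P lists held 21574 and 24509 peaks in KD and 23964 and 25441 in control. The Ser2P lists held 32125 and 29372 peaks in KD and 30286 and 20793 in control, so Ser2P control 2 stood apart with the shortest list. Median peak width was larger in every KD library of both antibodies (Ser5P 533.5 and 532 bp in KD, 486 and 497 bp in control; Ser2P 478 and 479 bp in KD, 428 and 381 bp in control). Of 21 erythroid marker genes, 11 carried promoter Ser5P in all 4 libraries and 16 carried downstream Ser2P in all 4, whereas 0 of 10 lymphoid, 10 myeloid and 10 non-haematopoietic markers and 3 of 10 megakaryocyte and mast cell markers carried promoter Ser5P in all 4. Downstream Ser2P was present in all 4 libraries at 2 of the lymphoid, 2 of the myeloid, 3 of the non-haematopoietic and 3 of the megakaryocyte and mast cell markers. Gata1, Lmo2, Ldb1, Alas2, Ank1, Slc4a1 and Hbb-bt had no Ser5P peak in any library at the outer 5′ end used here, which does not see a start inside the annotated gene.

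Downstream Ser2P was missing at the members, but Ser2P at the promoter was not. This window lies outside the rule, since the Ser2P window of the rule starts 1000 bp inside the gene. A Ser2P peak lay within 1000 bp of the 5′ end at 973 and 965 of the 990 members in KD and at 970 and 893 in control. As shares these were 98.3 and 97.5% in KD and 98.0 and 90.2% in control, and the difference in the number of members (969 ± 5.66 in KD and 931.5 ± 54.4 in control, SD, n = 2 each) did not pass the two-sided exact permutation test (p = 0.667; the smallest it can give is 0.333). The low value belonged to Ser2P control 2, the library with the shortest list, and without it KD minus control was -1 member. In all 4 libraries, promoter Ser2P was found at 873 members (88.2%, 95% Wilson interval 86.0 to 90.0%), against 89.8% of the genes with downstream Ser2P in all 4 libraries. The marks also lay close together: the strongest Ser5P and Ser2P summits of a member were a median of 56 and 63 bp apart in KD 1 and KD 2 and 50 and 60 bp apart in control 1 and control 2.

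The share of members with promoter Ser2P went with the breadth of promoter Ser5P, given here as a description. Among the 248 members in the lowest quartile of mean Ser5P coverage (143.5 to 568.75 bp), 94.4 and 92.3% had promoter Ser2P in KD and 94.0 and 78.6% in control. Among the 248 in the highest quartile (864.5 to 1660.25 bp), the shares were 100 and 100% in KD and 100 and 98.0% in control. Only 4 members had no promoter Ser2P in any library, and they were named after their values were seen: Rsad2, which encodes the antiviral protein viperin, Scimp, an adaptor of immune cells, and the zinc-finger genes Zfp273 and Zscan26. At Rsad2 Ser5P covered 312 and 452 bp of the 2 kb promoter window in KD and 640 and 626 bp in control. At Zscan26 it covered 270 and 487 bp in KD and 230 and 316 bp in control.

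**Figure D1:**
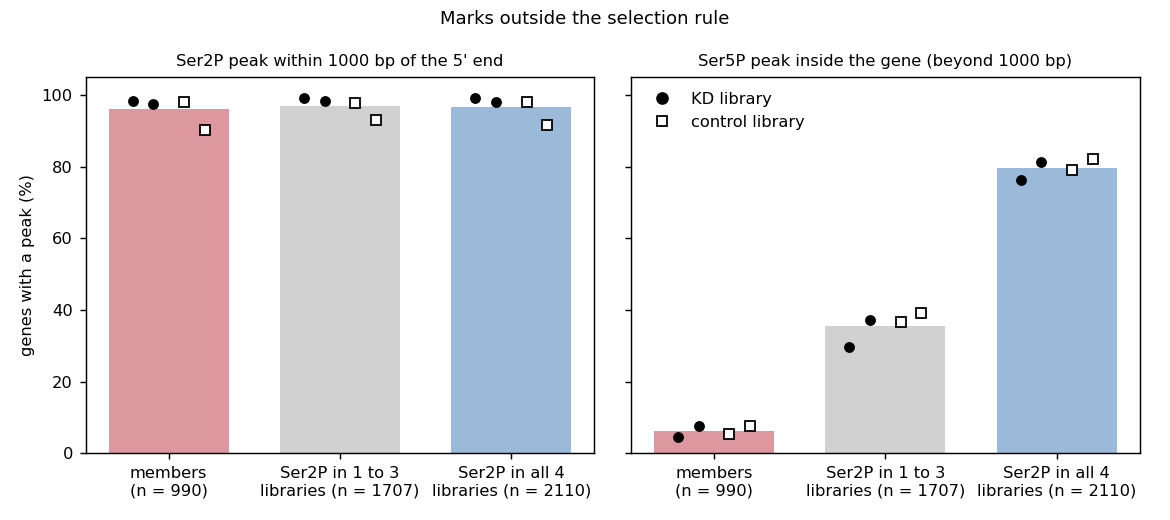
Share of genes with a Ser2P peak within 1000 bp of the 5′ end (left) and with a Ser5P peak from 1000 bp inside the 5′ end to the 3′ end (right), in percent; bars are means of 4 libraries and points are the libraries. Members reach 90.2 to 98.3% for promoter Ser2P, but 4.65 to 7.68% for Ser5P inside the gene. The latter compares with 29.6 to 39.2% of genes with downstream Ser2P in 1 to 3 libraries and 76.2 to 82.2% of those with it in all 4.

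Ser5P itself was also seldom found inside these genes. From 1000 bp inside the 5′ end to the 3′ end, a Ser5P peak was present at 4.65 and 7.58% of members in KD and 5.45 and 7.68% in control. Of the genes with downstream Ser2P in 1 to 3 libraries, 29.6 and 37.3% had such a peak in KD and 36.7 and 39.2% in control. Of the genes with downstream Ser2P in all 4 libraries, 76.2 and 81.2% had one in KD and 79.1 and 82.2% in control. Members and this last set differed by a mean of -73.3 percentage points (SD of the difference 1.27, n = 4 libraries). Members were lower in 4 of 4 libraries (two-sided exact sign-flip permutation p = 0.125, the smallest that 4 libraries can give). The class with Ser2P in 1 to 3 libraries lay between them and was not tested. Downstream peaks of the marks often coincide. In genes with Ser2P in all 4 libraries, 51.6 and 58.9% of downstream Ser2P peaks in KD overlapped a Ser5P peak of the matching library. In control these shares were 57.5 and 71.7%. The comparison is therefore not independent of peak calling at shared sites. Since the sets were split by Ser2P peaks in this window, the direction of the gap is partly built into the rule. The p-value is no independent support for it.

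The gap was present in each length class. Among genes of 5 to 10 kb, 2.90% ± 0.497 of members and 59.7% ± 1.4005 of genes with Ser2P in all 4 libraries had Ser5P inside (SD, n = 4 libraries each). Among genes of 20 to 50 kb the shares were 9.92% ± 3.51 and 81.0% ± 3.20. Members were lower in every library in each of the 5 length classes. The limit given above, that the gap is partly built into the rule, holds for each class.

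For 806 members (81.4%) no Ser5P peak lay inside the gene in any library, beside 35.9% of the genes with Ser2P in 1 to 3 libraries. Only 2 members had one in all 4, named after their values were seen. Ptpmt1, a mitochondrial lipid phosphatase, had 6 and 307 bp of inner Ser5P in KD and 247 and 198 bp in control. Card19, a mitochondrial protein with a caspase recruitment domain, had 697 and 394 bp in KD and 249 and 427 bp in control. KD and control did not differ beyond their spread in the number of members with inner Ser5P: it was 46 and 75 in KD and 54 and 76 in control (exact permutation p = 0.667), and the sign of the difference turned when KD 1 was left out (10 members more in KD) or control 2 was (6.5 more).

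The position of the strongest promoter Ser5P peak is given as a description, since the rule used these peaks. At members its summit lay a median of 37 and 38 bp inside the 5′ end in KD and 12 and 21.5 bp in control. In the genes with Ser2P in all 4 libraries it lay 58 and 62 bp inside in KD and 29.5 and 37.5 bp in control. In the genes with Ser2P in 1 to 3 libraries it lay 34 and 35 bp inside in KD and 9 and 10 bp in control, nearer to the start than at members in every library. The summit lay within 300 bp of the 5′ end in 86.1 and 86.8% of members in KD and 86.9 and 86.0% in control, against 81.3 and 79.4% of the genes with Ser2P in 1 to 3 libraries in KD and 80.6 and 80.02% in control, and 65.8 and 65.8% of those with Ser2P in all 4 in KD and 67.5 and 66.6% in control. Since Ser2P summits lie near Ser5P summits, a promoter peak far inside the gene can bring Ser2P into the downstream window and remove the gene, so this gap is partly built into the rule.

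**Figure D2:**
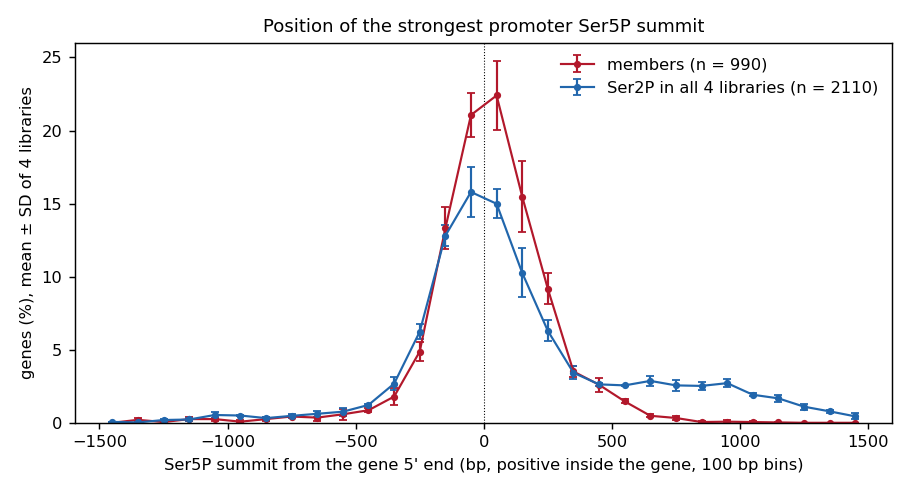
Distance of the strongest promoter Ser5P summit from the gene 5′ end (x axis, bp in 100 bp bins, positive inside the gene) against the share of genes (y axis, percent; mean ± SD of 4 Ser5P libraries). Members form a narrower peak around the start, while genes with Ser2P in all 4 libraries keep a shoulder of summits from 500 to 1300 bp inside, a region where the rule itself can remove genes.

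In the authors' folds, which rank peaks within a list, members were not weaker than the comparison genes in any Ser5P library. The median fold of the strongest promoter peak was 7.78 and 7.59 at members in KD and 8.30 and 8.23 in control, beside 6.96 and 6.89 in KD and 7.37 and 7.39 in control at genes with Ser2P in all 4 libraries. Covered length went the other way, with medians of 703 and 743.5 bp at members in KD and 668.5 and 696.5 bp in control, beside 741.5 and 787 bp in KD and 703 and 730 bp in control at the comparison genes. These values belong to the contrast that chose the genes and carry no test. Split by mean Ser5P coverage, members made up 21.3, 24.4, 20.5 and 16.1% of the eligible genes from the lowest to the highest quartile.

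By the smallest fold over the 4 libraries, the strongest Ser5P peak belonged to Pnp, which encodes purine nucleoside phosphorylase of the purine salvage pathway (chromosome 14, 50944303 to 50953412, plus strand). Its folds were 17.2 and 15.8 in KD and 16.9 and 18.3 in control, and its promoter coverage was 584 and 641 bp in KD and 620 and 622 bp in control. The summit lay 207 or 277 bp inside the annotated 5′ end, downstream of the printed promoter. Zfp963, a zinc-finger gene, followed with folds of 15.7 and 14.5 in KD and 15.01 and 16.5 in control. Idi1, an isomerase of cholesterol synthesis, had folds of 15.3 and 15.4 in KD and 14.1 and 16.9 in control. The 10 highest also held Dynlt1a (a dynein light chain gene with near-identical neighbouring copies, so its peaks are uncertain), Zfyve16, Acot9, Exd2, Siah1b, Fbxo47 and Tbl2. Siah1b, a ubiquitin ligase gene on the X chromosome, had similar coverage in every library, 817 and 839 bp in KD and 822 and 853 bp in control for Ser5P, and 772 and 811 bp in KD and 798 and 817 bp in control for Ser2P. Such promoters carried both marks in all 8 libraries and neither mark further inside, except that Acot9 had inner Ser5P in both controls (439 and 345 bp).

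Members were short genes. Their median length was 14.3 kb (5.01 to 435 kb), against 35.0 kb for genes with Ser2P in all 4 libraries and 25.1 kb for all eligible genes. The share of eligible genes that were members was 40.6% at 5 to 10 kb, 30.2% at 10 to 20 kb, 15.5% at 20 to 50 kb, 6.76% at 50 to 100 kb and 3.41% over 100 kb. A longer gene has a longer window in which a single Ser2P peak removes it, so length is partly built into the rule. The longest members included Cep112, Enox2, Adamts6 and Catspere2, between 189553 and 435401 bp. Cep112, a centrosomal protein gene (chromosome 11, 108425215 to 108860615, plus strand), had Ser5P coverage of 710 and 673 bp in KD and 839 and 475 bp in control at its promoter, and promoter Ser2P of 893 and 754 bp in KD and 705 and 427 bp in control. Adamts6, a metalloprotease gene of the ADAMTS family, was more thinly marked, with Ser5P of 306 and 372 bp in KD and 324 and 375 bp in control.

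**Figure D3:**
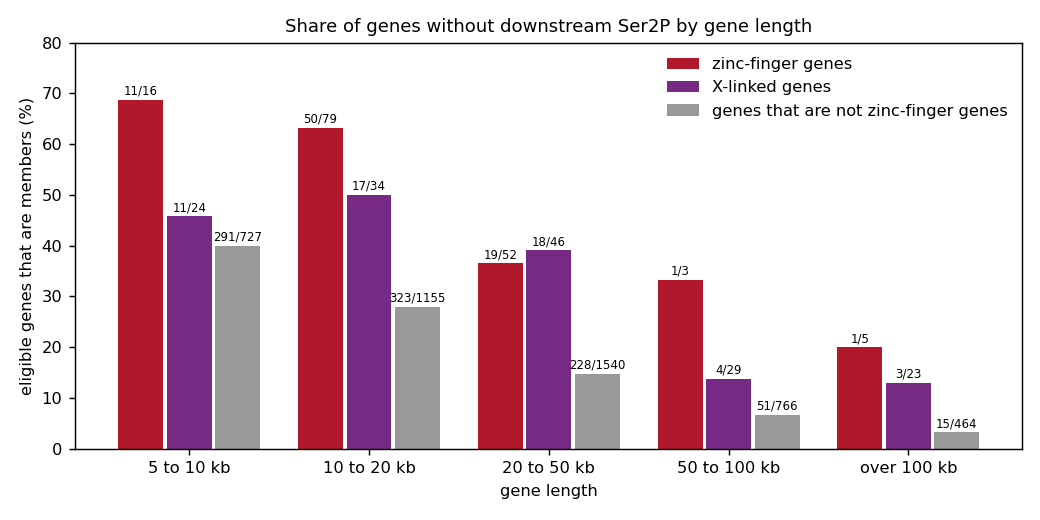
Share of eligible genes that are members (y axis, percent) by gene length class (x axis), for zinc-finger genes, X-linked genes and genes that are not zinc-finger genes; numbers above bars are members over eligible genes. The share falls with length in genes that are not zinc-finger genes. Zinc-finger genes lie above them in each class up to 50 kb, with 68.75% against 40.03% at 5 to 10 kb and 36.5% against 14.8% at 20 to 50 kb. The 50 to 100 kb and over 100 kb classes rest on 1 of 3 and 1 of 5 zinc-finger genes.

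Shares of gene families are given without a test, since the readout chose the members. Of the 21 lists examined the highest share belonged to zinc-finger genes (symbols Zfp, Zscan and Zkscan), many of which encode KRAB-domain repressors of retroelements. Of 155 eligible zinc-finger genes, 82 were members (52.9%, 95% Wilson interval 45.1 to 60.6%), against 908 of 4652 other eligible genes (19.5%, 18.4 to 20.7%). The gap held within the length classes up to 50 kb, at 63.3% of zinc-finger genes and 28.0% of others from 10 to 20 kb. They sit in clusters, with 23 of 37 eligible on chromosome 7, 15 of 18 on chromosome 13 and 12 of 18 on chromosome 17. The intervals cover counting error only, take clustered genes as independent and are no test. Neighbouring copies are alike in sequence, and how reads with several matches were handled is not given in the sources used here, so single genes of this family are uncertain. Zfp619 (chromosome 7, 39517766 to 39540415, plus strand) had Ser5P coverage of 494 and 497 bp in KD and 509 and 526 bp in control. Zfp438 had 927 and 1008 bp in KD and 898 and 745 bp in control.

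Zinc-finger members had narrower Ser5P than other members in each library. Their median Ser5P coverage was 606.5 and 654.5 bp in KD and 631 and 604.5 bp in control, against 714 and 752.5 bp in KD and 674 and 704.5 bp in control at other members. Promoter Ser2P was found at 96.3 and 92.7% of them in KD and 91.5 and 79.3% in control, against 98.5 and 97.9% of other members in KD and 98.6 and 91.2% in control. Their Ser5P coverage was above both controls in both KD libraries at 13 of 82 (background 25.6%) and below both at 17 (background 10.8%), with a median difference of -2.25 bp, beside 35.5 bp over all genes tested.

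X-linked genes also stood above autosomal ones. Of 156 eligible X-linked genes 53 were members (34.0%, 95% Wilson interval 27.01 to 41.7%), against 937 of 4648 autosomal genes (20.2%, 19.03 to 21.3%). These intervals too cover counting error only and are no test. The share was 50.0% against 29.7% at 10 to 20 kb and 39.1% against 14.8% at 20 to 50 kb, and 34.0% remained with zinc-finger genes left out. Besides Siah1b and Acot9 they included Rab9, a GTPase of late endosomes, with Ser5P of 918 and 944 bp in KD and 888 and 958 bp in control, and the mitochondrial carrier gene Slc25a14, with 720 and 630 bp in KD and 601 and 569 bp in control.

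The other gene lists lay on both sides of the share over all eligible genes, 20.6%. Mitochondrial ribosomal protein genes had 11 members of 27 eligible (40.7%), led by Mrps14, Mrpl17 and Mrps33, and respiratory chain and ATP synthase genes 6 of 22 (27.3%), with Cox7a2l, Ndufv1 and Ndufs5. Both lists are of short genes, with median eligible lengths of 12.5 and 8.01 kb. RNA helicase, SR and hnRNP genes had 14 of 60 (23.3%), ubiquitin ligase and related genes 26 of 121 (21.5%) and solute carriers 19 of 90 (21.1%). Ion channels and G-protein-coupled receptors had 5 of 25, cytosolic ribosomal protein genes 2 of 10, proteasome subunits 4 of 21, MAP kinase cascade genes 5 of 27, DNA repair genes 4 of 26, adhesion and matrix genes 2 of 13 and aminoacyl-tRNA synthetases 2 of 18. Histone methyltransferase and demethylase genes had 2 of 25. Developmental transcription factors had 0 of 18, which allows a share of up to 16.7% (3 counts of the total, counting error only), and 10 of these 18 had downstream Ser2P in all 4 libraries. Both of these last lists are of long genes, with median eligible lengths of 45.9 and 50.8 kb. Over all eligible genes the share of members was 15.5% at 20 to 50 kb and 6.76% at 50 to 100 kb, so 20.6% is no fair yardstick for them.

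Of 14 eligible genes on the erythroid list 2 were members (14.3%, beside 20.6% of all eligible genes), Cpox and Trim10. Downstream Ser2P was present in all 4 libraries at 10 of the 14. The list is not complete, so this share does not cover every erythroid gene. Flvcr1, Epb42 and Hemgn, named after their values were seen, were members outside it. Cpox encodes coproporphyrinogen oxidase of haem synthesis (chromosome 16, 58670208 to 58680391, plus strand) and had Ser5P of 891 and 587 bp in KD and 654 and 738 bp in control. Trim10, a protein of terminal erythroid differentiation, had Ser5P of 961 and 917 bp in KD and 937 and 971 bp in control, and promoter Ser2P of 939 and 927 bp in KD and 951 and 968 bp in control. Among 17 eligible genes for pausing factors, elongation factors and C-terminal domain kinases, Supt4a was the single member. It encodes a subunit of DSIF, and its Ser5P coverage was 1287 and 1184 bp in KD and 1098 and 1057 bp in control. DNA replication and cell cycle genes had 6 members of 36, among them Mcm3, a subunit of the replicative helicase, with 572 and 581 bp in KD and 588 and 574 bp in control.

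The comparison of KD with control asked whether the breadth of Ser5P at these promoters differed after Myrlin knockdown. The rule required a promoter Ser5P peak in every Ser5P library, KD and control alike. A promoter that gained or lost its peak altogether with knockdown could therefore not be a member. For members the tests below can show only changes in breadth where the peak was kept, and cannot decide whether knockdown brought or removed Ser5P. The members' median coverage was 723.25 ± 28.6 bp in KD and 682.5 ± 19.8 bp in control (SD, n = 2 each), a difference of 40.75 bp (two-sided exact permutation p = 0.333, the smallest possible). It was 20.5 bp without Ser5P KD 2, and 20.5 to 61 bp over the libraries left out in turn. Over all genes with a Ser5P promoter peak in at least 1 library the difference was 51.5 bp, and the wider peaks of the KD libraries move with it; their part in the result was not tested. In limma across 9799 such genes, no gene passed an adjusted p of 0.05 in either direction (0.0% each; Benjamini-Hochberg). At an unadjusted p under 0.05, limma found 648 genes higher in KD (6.61%) and 216 lower (2.2%), among them 55 and 16 members. Of the members 592 were higher in KD, 397 lower and 1 the same, with a median difference of 30.0 bp, beside 35.5 bp over all genes tested. Without KD 2 these were 519 higher and 471 lower, with a median of 6.0 bp, beside 8.5 bp over all genes tested.

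Coverage in both KD libraries was above both controls at 265 members (26.8%; background 25.6%) and below both at 126 (12.7%; background 10.8%). These shares lay near those over all genes tested, which unlike the members include promoters without a Ser5P peak in some libraries. For Ser2P at the promoter the counts were 444 members above (44.8%; background 46.1%) and 20 below (2.02%; background 2.21%), again near the background.

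Hsh2d, which encodes a haematopoietic SH2-domain adaptor, had the largest difference towards KD (chromosome 8, 72189668 to 72200958, plus strand). Ser5P covered 915 and 1136 bp of its promoter window in KD and 342 and 280 bp in control. Both KD libraries lay far above both controls in covered length, with a difference of 714.5 bp ± 102 (limma SE). The Benjamini-Hochberg adjusted p in limma was 0.362. Ser2P at Hsh2d, with 475 and 377 bp in KD and 418 and 328 bp in control, overlapped between the groups. Flvcr1, a haem and choline transporter needed for red cell production (chromosome 1, 191005832 to 191026190, minus strand), had Ser5P of 1382 and 1566 bp in KD and 785 and 894 bp in control, and limma gave an adjusted p of 0.362. Its Ser2P moved the same way, with 1700 and 1718 bp in KD and 1233 and 1082 bp in control. Klf5, a transcription factor gene, had 1041 and 1063 bp in KD and 534 and 386 bp in control, with replicates close together in KD. Tmem41a and Rnf103, an endoplasmic reticulum ubiquitin ligase gene, completed the 5 largest, with differences of 614 and 599.5 bp. These are differences in peak breadth, and the fold of the strongest Ser5P peak did not rise with them. At Flvcr1 the folds were 9.94 and 9.24 in KD and 10.1 and 10.3 in control. At Klf5 they were 6.87 and 7.21 in KD and 9.30 and 7.34 in control. The folds of the groups overlapped at Hsh2d, Tmem41a and Rnf103.

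In the other direction Anxa2, which encodes the membrane-binding protein annexin A2 (chromosome 9, 69453683 to 69491792, plus strand), had Ser5P of 397 and 726 bp in KD and 1173 and 1063 bp in control. The difference was -556.5 bp ± 139 (limma SE), with a Benjamini-Hochberg adjusted p of 0.399 in limma. Ser2P at Anxa2 lay the other way, with 1279 and 1252 bp in KD and 622 and 550 bp in control, and the groups did not overlap for either mark. By fold of the strongest peak, Ser5P at Anxa2 was also lower in KD (4.72 and 5.63, against 7.18 and 7.64 in control). Ssr2, a subunit of the translocon-associated complex of the endoplasmic reticulum, showed the same opposite pattern in covered bp only. Its Ser5P folds went the other way, at 6.90 and 7.45 in KD and 6.09 and 5.88 in control. Its Ser5P coverage was 560 and 633 bp in KD and 860 and 1267 bp in control. Its Ser2P coverage was 1216 and 1249 bp in KD and 485 and 432 bp in control. Fam83d, a spindle protein gene, had Ser5P of 790 and 961 bp in KD and 1312 and 1472 bp in control, while its Ser2P groups overlapped. Ccdc66 and Rab1b, a GTPase of transport from the endoplasmic reticulum to the Golgi, followed with -367.5 and -365.5 bp.

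**Figure D4:**
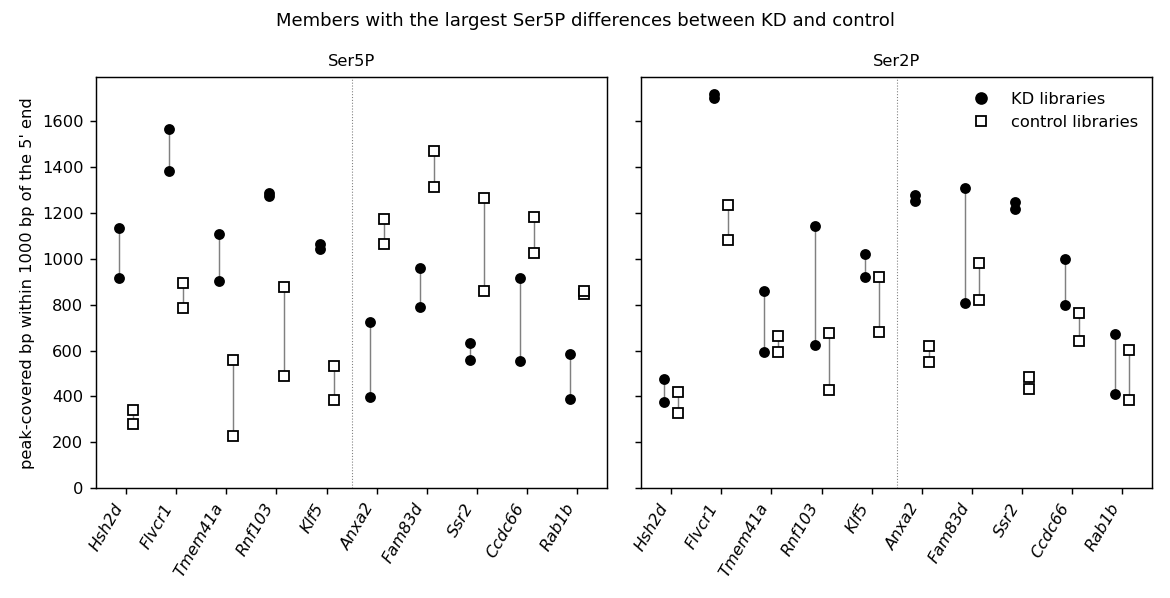
Peak-covered bp within 1000 bp of the 5′ end (y axis) for Ser5P (left) and Ser2P (right) at the 5 members with the largest KD increase and the 5 with the largest KD decrease in Ser5P; filled circles are KD libraries, open squares control libraries. At Anxa2 and Ssr2 the KD libraries lie below the controls for Ser5P and above them for Ser2P.

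By covered bp, opposite movement of the marks was found at 50 members (5.05%, background 4.27%). At these, Ser5P lay below and Ser2P above both controls in both KD libraries. The same direction upward was found at 129 (13.03%; background 13.8%). Ser5P above and Ser2P below was found at 4, namely Ddx20, Pi4k2b, Vegfa and Grpel2 (0.404%; background 0.378%), and both below at Tor2a and Mtmr9 (0.202%; background 0.378%), all named after their values were seen. At Vegfa, the vascular growth factor gene, Ser5P covered 1077 and 1241 bp in KD and 843 and 996 bp in control, and Ser2P 719 and 734 bp in KD and 806 and 773 bp in control. Each of these shares lay near its background.

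By presence of a peak, promoter Ser2P was found in both KD libraries and neither control at 7 members (0.707%, background 1.1%). The background of such calls counts all 21536 protein-coding genes, with or without a promoter peak. Among genes with downstream Ser2P in all 4 libraries the share was 0.569% (12 of 2110). Of the 7 members, Fam199x, Mrpl3, Zscan12, Yae1d1 and Zfp184 ranked highest by fold. At Zfp184 Ser2P covered 604 and 277 bp in KD and 0 and 0 bp in control, and Ser5P covered 896 and 852 bp in KD and 558 and 282 bp in control. At Mrpl3, a mitochondrial ribosomal protein gene, Ser2P covered 334 and 314 bp in KD and 0 and 0 bp in control, whereas Ser5P was 338 and 279 bp in KD and 386 and 469 bp in control. In the reverse case there were 0 members (background 0.2%), which allows up to 0.303%. Ser5P inside the gene was present in both KD libraries and neither control at 4 members (0.404%, background 1.0%). It was present in both controls and neither KD library at 8 (0.808%, background 1.39%). In genes with downstream Ser2P in all 4 libraries these shares were 0.806% and 1.23%. The 4 members were Cnot10, Med4, Tmem189 and Tnfrsf14, named after their values were seen. At the Mediator subunit gene Med4 this peak covered 591 and 603 bp in KD and 0 and 0 bp in control.

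In the gene lists, members above both controls in both KD libraries numbered 9 of 14 RNA helicase, SR and hnRNP genes, with 0 below and a median difference of 115.5 bp, beside 35.5 bp over all genes tested. Snrpe, a core spliceosomal protein gene, had Ser5P of 906 and 1094 bp in KD and 898 and 903 bp in control. Among ubiquitin ligase and related genes 12 of 26 lay above and 2 below, with a median of 81.5 bp. Usp22, a deubiquitinase of the SAGA coactivator, had 958 and 1016 bp in KD and 722 and 687 bp in control. Of 19 solute carriers 6 lay above and 2 below, with Slc35f5 at 902 and 1200 bp in KD and 741 and 671 bp in control. None of these genes passed the adjusted threshold in limma.

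Promoter sequence was compared as a description, without a test. A RefSeq start within 100 bp of the gene 5′ end was found for 700 members, 1236 genes with Ser2P in all 4 libraries and 13537 protein-coding genes, and 788 members were in the table at all. Median GC content was 58.7% in members, 62.0% in the comparison genes and 55.3% over all promoters, and the ratio of observed to expected CpG was 0.745, 0.790 and 0.546. The GC box was found in 65.1% of members, 75.2% of comparison genes and 44.5% of all. The ETS core was found in 24.9% of members, 18.6% of comparison genes and 12.004% of all, and the NRF1 core (TGCGCA) in 20.4, 16.5 and 10.2%. The CCAAT box occurred in 48.9, 42.9 and 40.6%, and the TATA box in 7.86, 5.42 and 14.8%. The nearest class, 1145 genes with Ser2P in 1 to 3 libraries, had the GC box in 71.4%, the ETS core in 22.4% and the NRF1 core in 17.6%. Its CCAAT box share was 42.6% and its CpG ratio 0.799. In 61 promoters of zinc-finger members the GC box was found in 39.3%, the CCAAT box in 55.7% and the ETS core in 37.7%, with a median GC content of 54.3%. Of the zinc-finger promoters printed above, that of Zfp120 was chosen for its ETS core and has 50.3% GC, and those of Zfp963 and Zfp619 hold none. In 40 X-linked members the CRE core (TGACGT) was found in 10, against 11.3% of all members, and the Siah1b promoter holds it in its lower-case letters. The GATA site (AGATAA), bound by erythroid GATA factors, was found in 7.14% of members, 5.83% of comparison genes and 10.6% of all promoters. The E-box (CACGTG) was found in 9.14, 12.9 and 7.93%, the YY1 core (AAGATGG) in 6.0, 7.85 and 6.63%, and the AP-1 site (TGANTCA) in 6.71, 4.77 and 7.31%. All motifs were searched as exact letters on both strands, and a match is no evidence of binding.

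**Figure D5:**
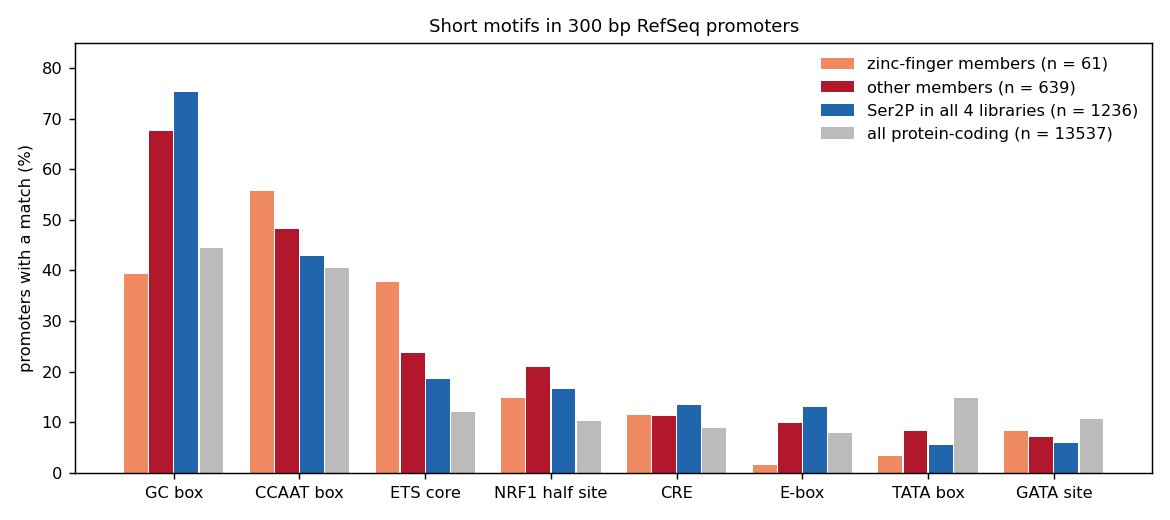
Share of 300 bp RefSeq promoters with an exact match of each motif on either strand (y axis, percent), for 61 zinc-finger members, 639 other members, 1236 genes with Ser2P in all 4 libraries and 13537 protein-coding genes. Zinc-finger members have the fewest GC boxes (39.3%) and the most ETS cores (37.7%) of the groups drawn.

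At the edge of the rule lay Nacc1, Skil, Krt10, Oscar and Irgm2, the members with the least Ser5P in the promoter window in any single library. The strongest peak overlapping the window often had its summit upstream of the window. At Oscar this summit lay at -1394 and -1195 bp from the 5′ end in KD and -1168 and -1345 bp in control. At Krt10 it lay at -912 and -1156 bp in KD and -1159 and -1117 bp in control. At Irgm2 it lay at -1042 and -809 bp in KD and -823 and -1034 bp in control. At Nacc1 it lay outside the window only in control 2, at -1319 bp. Nacc1, a transcription factor gene, had 443 and 482 bp in KD and 506 and 47 bp in control, and Krt10, a keratin gene, 162 and 115 bp in KD and 213 and 123 bp in control. Just outside lay genes with downstream Ser2P in 1 library, covering at least 8 bp of the window: Arrb2, Pex16, Yars2, C1rl and Trim16. Yars2, a mitochondrial tyrosyl-tRNA synthetase gene, was left out by 9 bp of Ser2P in KD 1. Genes kept out by Ser2P KD 1 alone numbered 189, by KD 2 alone 140, by control 1 alone 163 and by control 2 alone 60, with median −log10 q values of 3.10, 3.31, 3.23 and 3.04. Only 5 members had under 200 bp of promoter Ser5P in any library.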

How the data were processed

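Ser5P and Ser2P CUT&Tag peaks of MEL cells were analysed in 8 libraries, 2 per antibody and line. The submitters' processing notes name MACS2 2.2.7.1 beside Bowtie2 2.3.5 and cutadapt 2.7, then deepTools 3.3.1, Picard 2.21.4 and SAMtools 1.9, with build GRCm38 (mm10). Settings and any use of a control library in peak calling were not given in the sources used here. The authors deposited a peak list for each library, with a display score, a fold enrichment (a ratio) at the summit, the −log10 p-value and −log10 q-value, and the summit offset. The lowest −log10 q was 1.30 to 1.31. Read totals were not used here, so depth is known only through the lists. Folds were used to rank and describe peaks within a list.

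Only autosomal and sex chromosome peaks entered, which left out 24 to 30 per library. Gene intervals came from RefSeq GRCm38.p6 and the 5′ end is the interval's outer end. Strand came from the RefSeq promoter table for 17492 genes and from GENCODE vM1 for 3649 (by symbol) and 395 (by synonym), and 351 genes without a strand were left out. The sources gave the same strand for 99.7% of 18258 shared genes. A peak overlapping a window by 1 bp counted. Coverage is the number of bp of a window under peaks.

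KD and control coverage was compared with limma 3.58.1 (R 4.3.3) on covered bp of every gene with a Ser5P promoter peak in at least 1 library, with Benjamini-Hochberg adjustment, and tested on simulated data. Counts and medians were compared by exact permutation (scipy 1.17.1). Shares of genes have 95% Wilson intervals, which like the limits for a count of 0 cover counting error only. Background shares count all genes tested that meet the same criterion.

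The members, gene lists and motifs were chosen with earlier results of these data known. Named genes are, by rule, the 10 members with the highest smallest Ser5P fold, up to 3 per list in that order, the 5 largest differences in each direction without overlap, the 5 longest, up to 5 per direction of promoter Ser2P calls, and 5 just inside and 5 just outside the rule. Predicted genes were passed over, and a gene and a gene list are not reported here. Alternatives were stricter peaks, equal list lengths, other windows and overlaps, leaving out each library, and other limma settings.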

Additional observations from a re-analysis of the deposited data

How the results depend on the processing

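The number of members, 990, depends on how Ser2P peaks are called and where they are sought. It was 1645 with −log10 q of at least 5 (872 of the 990 among them), 1545 with the same number of peaks per library (961 among them), 1493 with no extension past the 3′ end, since 503 eligible genes carry Ser2P only there, and 1531 with opposite-strand 5′ ends not left out. Leaving out single libraries gave 1009 to 1179. Other windows, overlaps and lengths gave 688 to 1092, of which 3 settings were chosen after seeing the data. The members' median Ser5P difference, 40.75 bp, ran from 20.5 to 61 bp as single libraries were left out. For members with promoter Ser2P, KD minus control ran from -1 to 76 (37.5 with all libraries) as single libraries were left out, the lowest without Ser2P control 2. For members with inner Ser5P, KD minus control (-4.5) turned to 3.5 with stricter peaks and to 16 at equal list length, and ran from -19 to 10 as single libraries were left out. The cause of these changes was not tested. In limma, coverage on the log2 scale, log2(bp + 1), called 166 genes (76 higher and 90 lower in KD), of which 1 was a member, and all genes unfiltered called 19, of which 1 was a member, where most genes had no peak at all; other settings called 0. Promoter Ser5P coverage gave no sign that replicate numbers pair the libraries: deviations of same-numbered KD and control libraries correlated at 0.0379 over 9799 genes. Such a value cannot show whether the cultures were paired, and Ser2P was not checked. With the replicate block limma called 0 genes (609 higher and 231 lower in KD at an unadjusted p under 0.05). Where Ser5P and Ser2P libraries were matched above, the match was by group and replicate number. The differences between members and genes with Ser2P in all 4 libraries kept their direction under every alternative run. They were -65.7 to -73.9 percentage points for inner Ser5P and -18.2 to -20.8 bp for the summit. Both gaps are partly built into the rule. With 2 libraries a group the exact tests cannot pass 0.05.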

Other observations

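Members were spread unevenly over the chromosomes. They made up 31.0% of the eligible genes on chromosome 13, 29.0% on chromosome 6 and 28.4% on chromosome 14, against 11.0% on chromosome 19, 13.8% on chromosome 15 and 14.1% on chromosome 5. On chromosome 13, 15 of the 49 members were zinc-finger genes. No gene of the Y chromosome was a member (3 eligible). These shares are descriptions without a test, chosen after seeing the data.

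Immediate-early and stress genes had 3 members of 11 eligible, Klf6, Atf3 and Zfp36l1, all known from other systems as rapidly induced genes. Klf6 had Ser5P of 548 and 725 bp in KD and 649 and 925 bp in control, Atf3 903 and 1164 bp in KD and 1166 and 1108 bp in control, and Zfp36l1, an mRNA decay factor gene, 687 and 723 bp in KD and 678 and 580 bp in control. The groups overlapped at Klf6 and Atf3. Interferon, Toll-like receptor, JAK and STAT genes had 5 members of 19, among them Ifngr1, an interferon-gamma receptor subunit, with Ser5P of 870 and 872 bp in KD and 856 and 877 bp in control.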
